A study of Mus musculus with 18 samples.

Results

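The genes that copy DNA were followed in immortalized murine brown preadipocytes, the precursors of brown fat cells, after treatment with FGF6, a secreted fibroblast growth factor. The set held 40 genes of the replication machinery, matched by symbol through their Ensembl identifiers to the 48023 genes of the count table, and all 40 were abundant enough to be tested among 15071 genes. It was divided by role into 9 groups: the MCM2-7 helicase (6 genes), licensing factors (6), helicase cofactors with Mcm10 (6), the clamp and its loader (6), polymerase alpha-primase (4), polymerases delta and epsilon (5), RPA (2), flap removal and ligation (2), and the regulators E2f1, E2f2 and Uhrf1 (3). RNA sequencing covered 6 groups of 3 libraries each: cells given vehicle for 4, 8 or 24 h, and cells given FGF6 at 200 ng/ml for 4, 8 or 24 h. Every group came from the same line, immortalized with SV40 T antigen, a viral protein that binds the retinoblastoma family of E2F inhibitors, so vehicle and treated cells alike carried it. The labels do not say whether the 3 libraries of a group came from separate cultures, and p-values then measure the spread between these libraries only.

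DNA replication is prepared before it starts. The origin recognition complex, with Cdc6 and Cdt1, loads the MCM2-7 ring onto origins, a step called licensing, and geminin (Gmnn) blocks Cdt1 so that no origin is licensed again in the same cycle. Cdc45 and the GINS proteins then turn the ring into an active helicase, primase and polymerase alpha start each strand, the RFC loader sets the PCNA ring in place for polymerases delta and epsilon, and Fen1 and Lig1 finish the lagging strand. Many of these genes are classical targets of E2F transcription factors, which are held back by the retinoblastoma family until cells enter the cycle.

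Library totals ran from 24327816 to 33471980 counts. Levels are given as CPM, a gene's count relative to its library's total, with totals scaled by TMM factors, and differences as log2 fold changes ± SE from edgeR's quasi-likelihood test, with p-values adjusted by the Benjamini-Hochberg method over all 15071 genes. A gene was called higher or lower at an adjusted p under 0.05. Library 3 of the vehicle group at 24 h stood apart: its chi-square per degree of freedom against the other 2 was 34.5 and 37.6, where the other pairs within groups lay between 2.34 and 7.05. Of 9 markers of preadipocytes and stromal cells, 8 were above 1 CPM in vehicle cells and Dlk1 was at 0. Their summed level at 24 h was 1508 to 1552 CPM with vehicle and 884.4 to 931.6 CPM with FGF6. The sums at 24 h with vehicle and FGF6 were 155.6 to 178.1 and 63.43 to 70.09 CPM for 5 mature adipocyte markers, 0.1752 to 0.5886 and 2.899 to 4.304 CPM for 4 endothelial markers, and 5.76 to 6.235 and 3.027 to 3.644 CPM for 5 immune markers, of which 4 were at or under 3 counts. The part of these shifts in the 24 h results was not tested.

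Per kilobase of exon, the replication genes were among the more abundant transcripts of these cells. In vehicle cells at 4 h their median level was 22.6 CPM per kb, beside 5.19 CPM per kb over all genes tested with a known length. In each of the 6 groups 38 of the 40 lay above the median of all genes, Mcm4 had the highest level (141 CPM per kb in vehicle cells at 4 h) and E2f2 the lowest (1.38 CPM per kb).

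The replication genes did not move as a block. At 4 h FGF6 left 10 of the 40 higher (25%, beside 28.6% of all genes tested) and 17 lower (42.5%, beside 34.2%). At 8 h 22 were higher (55%, beside 32.4%) and 6 lower (15%, beside 38.4%), and at 24 h 24 were higher (60%, beside 35.9%) and 5 lower (12.5%, beside 37.9%). The 6 lower at 8 h became 11 by library totals alone and 11 with upper-quartile factors. Without the vehicle library that stood apart the counts at 24 h were 27 higher and 5 lower. With each 24 h library left out in turn, 23 to 27 were higher and 5 lower, so the shift was not particular to that library.

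The changes were small. With a fold of at least 1.5 required as well, 1, 2 and 7 members were higher at 4, 8 and 24 h, where 9.7%, 13.8% and 15.3% of all genes passed. No member was lower by that fold at any of the 3 times, where 13.7%, 19.6% and 23% of all genes were. The members' median log2 fold change was -0.037, 0.163 and 0.186 in turn, and the median over all genes was -0.048, -0.050 and -0.022. The largest falls were -0.37, -0.33 and -0.34 on the log2 scale, for E2f2 at 4 h, Lig1 at 8 h and Mcm6 at 24 h. In RNA from whole cultures, a change in the share of cells in S phase and a change in RNA per cell cannot be told apart.

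The 4 h counts were the least firm. Leaving out FGF6 library 1 or 3 at 4 h reduced the 17 lower calls to 11 or 10. Scaling by library totals alone gave 6 higher and 25 lower members, and moved the share of higher calls among all genes from 45.5% to 33.3%. Of the 27 calls at 4 h, 15 held in every alternative fit run and with each library left out, against 26 of 28 at 8 h and 28 of 29 at 24 h. Of the members not called, 5 of 13, 5 of 12 and 7 of 11 stayed uncalled in all of these fits at 4, 8 and 24 h.

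**Figure D1:**
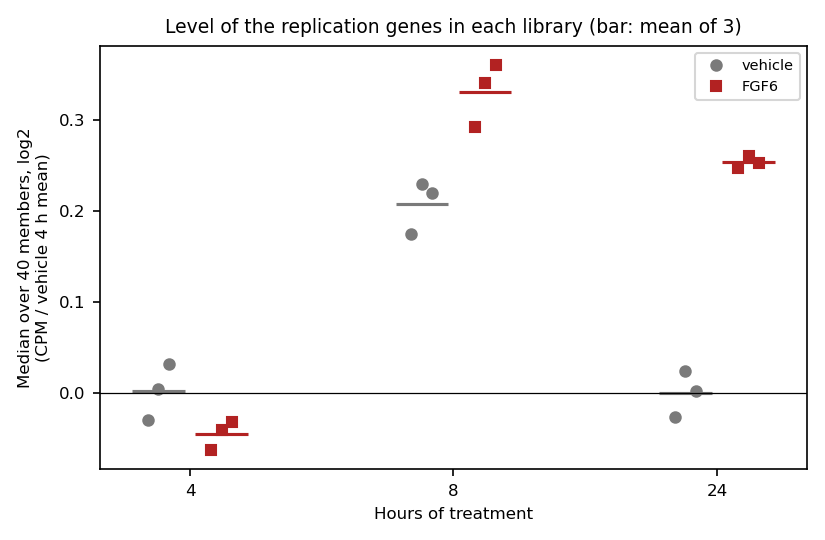
Median over the 40 members of log2(CPM divided by the vehicle 4 h mean), with a point for each library, a bar for the mean of 3, circles for vehicle and squares for FGF6, by hours of treatment. Vehicle libraries rose to between 0.175 and 0.229 at 8 h and were back between -0.026 and 0.024 at 24 h, while the FGF6 libraries were still between 0.247 and 0.260.

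**Figure D2:**
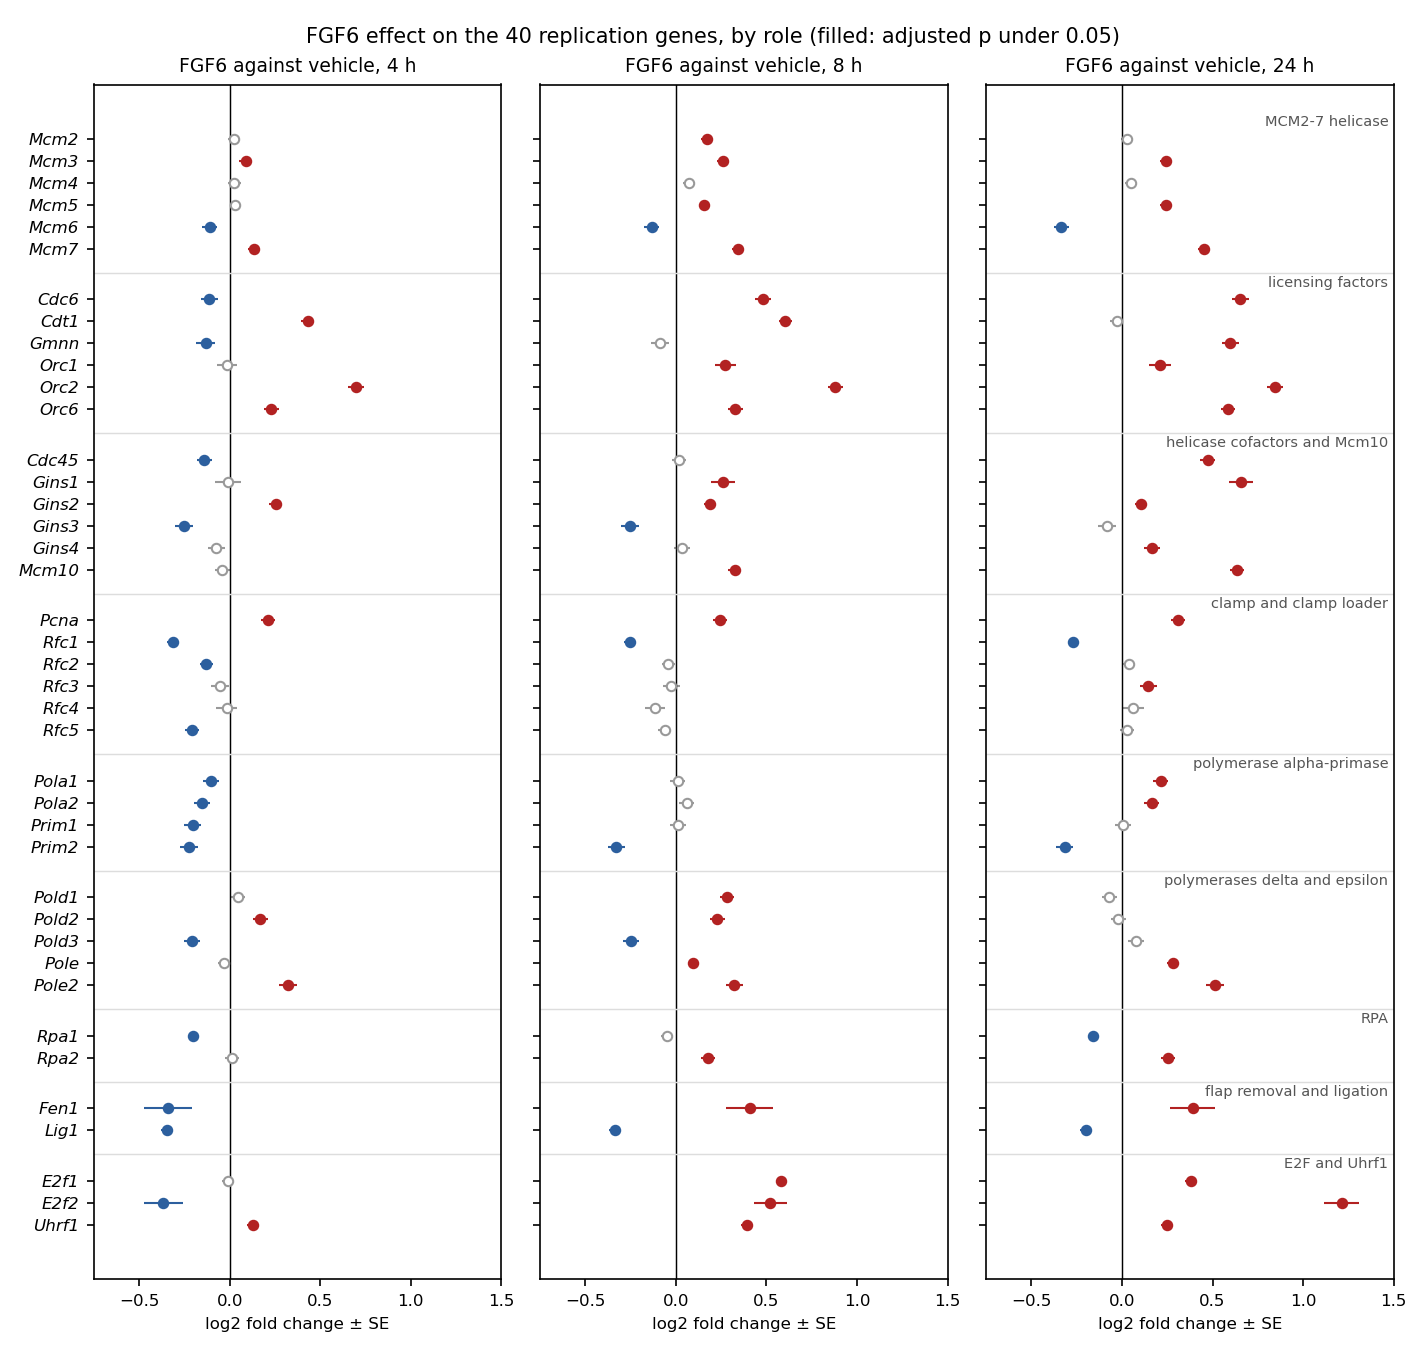
Log2 fold change of FGF6 against vehicle (x axis, bars: SE) for each of the 40 members by role, at 4, 8 and 24 h, with filled points for adjusted p under 0.05. Points were on both sides of 0 at 4 h (10 higher, 17 lower) and mostly to the right at 24 h (24 higher, 5 lower), with E2f2 farthest to the right at 24 h and Mcm6, Prim2, Rfc1 and Lig1 on the left at all 3 times.

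RefSeq promoter windows (300 bases, from 250 before to 50 after the start, build GRCm38.p6) were given for 32 of the 40 members. They were searched on both strands for 4 words of 8 letters that spell the textbook E2F element: TTTCCCGC, TTTGGCGC, TTTCGCGC and TTTGCCGC. Of the 32 members, 16 (50%) held at least 1 word, beside 2.26% of all 32851 windows and 4.56% of the genes tested that had a window. A gene with several windows was counted if any of them held a word. Mcm7, Uhrf1, Lig1 and E2f2 also had windows without a word. Those of Mcm7 and Uhrf1, at chr5:138171217-138171516 and chr17:56303087-56303386, are not printed, and Lig1 and E2f2 had no word before the start. In 9 members a word lay before the start, and the stretch around those words is printed for all 9, to show the words beside members that moved in different ways: Mcm5, Mcm7, Cdc6, Orc1, Rfc3, Pola1 and Uhrf1 were higher with FGF6 at 24 h, Mcm6 was lower, and Gins3 was lower at 4 and 8 h. Capitals mark the words, spelled in reverse complement where they lie on the other strand, each sequence runs 5′ to 3′ along the gene, and the 2 words in Mcm5 and the first 2 in Mcm6 overlap on opposite strands.
Mcm5 (chr8:75109320-75109403, plus strand): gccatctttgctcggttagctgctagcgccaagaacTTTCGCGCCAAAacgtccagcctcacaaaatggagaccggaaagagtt
Mcm6 (chr1:128359709-128359851, minus strand): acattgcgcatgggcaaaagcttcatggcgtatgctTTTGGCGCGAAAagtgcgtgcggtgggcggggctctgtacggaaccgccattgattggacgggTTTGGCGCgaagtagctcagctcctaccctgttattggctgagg
Mcm7 (chr5:138172005-138172084, minus strand): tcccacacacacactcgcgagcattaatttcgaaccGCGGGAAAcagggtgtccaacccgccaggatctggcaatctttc
Cdc6 (chr11:98907977-98908056, plus strand): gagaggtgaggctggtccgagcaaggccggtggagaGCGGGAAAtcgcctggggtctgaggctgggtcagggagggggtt
Orc1 (chr4:108579391-108579453, plus strand): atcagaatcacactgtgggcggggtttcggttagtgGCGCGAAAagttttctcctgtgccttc
Gins3 (chr8:95633482-95633558, plus strand): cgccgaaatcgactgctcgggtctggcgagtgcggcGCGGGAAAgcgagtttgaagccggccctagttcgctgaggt
Rfc3 (chr5:151651209-151651254, minus strand): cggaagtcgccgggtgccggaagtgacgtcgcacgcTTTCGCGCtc
Pola1 (chrX:93632250-93632329, minus strand): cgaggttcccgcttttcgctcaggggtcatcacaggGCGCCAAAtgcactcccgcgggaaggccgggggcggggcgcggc
Uhrf1 (chr17:56304092-56304171, plus strand): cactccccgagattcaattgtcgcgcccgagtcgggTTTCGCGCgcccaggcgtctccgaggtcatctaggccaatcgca

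The first word began 110 bases before the start in Mcm6, 165 in Mcm7 and 138 in Cdc6. Members with a word moved in both directions. At 24 h 10 of the 16 members with a word were higher and 2 lower, and 9 of the 16 without a word were higher and 2 lower, with median log2 fold changes of 0.212 and 0.209. At 4 h the counts were 5 higher and 7 lower with a word, and 4 higher and 7 lower without. The counts differed most at 8 h, at 10 higher and 4 lower with a word (median 0.266) and 9 higher and 1 lower without (median 0.173), a difference that was not tested. A match is a run of letters, and binding was not measured.

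The 6 subunits of the MCM2-7 ring, the core of the replicative helicase, separated. Mcm7 and Mcm3 were higher at all 3 times, Mcm5 at 8 and 24 h, Mcm2 at 8 h, and Mcm6 was lower throughout. Mcm4, at 0.026 ± 0.034, 0.071 ± 0.034 and 0.048 ± 0.034 on the log2 scale, was called at no time, but 6 of 8 alternative fits called it higher at 8 h (0.008 to 0.109 over the 8) and 3 of the 6 that left out a 24 h library did so at 24 h. Mcm7 (chr5:138164583-138172422, GRCm38) was at 221, 225 and 237 CPM in the vehicle libraries at 4 h and at 246, 249.5 and 252 CPM with FGF6. At 8 h the values were 239, 256 and 249.6 with vehicle and 308, 319.6 and 317 with FGF6, and at 24 h 222, 231 and 231 with vehicle and 309, 312 and 314 with FGF6. The groups did not overlap at any time, and the log2 fold change was 0.13 ± 0.033, 0.34 ± 0.033 and 0.45 ± 0.033 (edgeR, adjusted p = 0.00111, 8.45e-10 and 3.69e-12). By library totals alone the 4 h difference was 0.031 (adjusted p = 0.401). Of the 4426 exonic bases of Mcm7, 172 are shared with other genes on the same strand and 385 on the opposite strand.

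Mcm6 (chr1:128331590-128359664) moved the other way, although its protein sits in the same ring. It was at 352, 364 and 379.7 CPM in vehicle libraries at 24 h and at 293, 286 and 289 CPM with FGF6, without overlap. At 4 and 8 h the groups overlapped. The log2 fold change was -0.11 ± 0.041, -0.13 ± 0.041 and -0.34 ± 0.041 at 4, 8 and 24 h (edgeR, adjusted p = 0.0222, 0.00527 and 5.93e-08), and the effect was more negative at 24 h than at 8 h by 0.20 (adjusted p = 0.00584). The 4 h call was lost in 3 of 8 alternative fits and in 4 of the 6 fits that left out a 4 h library.

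Mcm2, the member of the ring with the smallest change at 24 h, was at 445, 460.2 and 454 CPM with vehicle and 508, 504 and 518 CPM with FGF6 at 8 h. By 24 h the groups overlapped, at 391, 411 and 392 with vehicle and 396, 406 and 414 CPM with FGF6. On the log2 scale it changed by 0.17 ± 0.03 at 8 h and 0.026 ± 0.03 at 24 h (edgeR, adjusted p = 1.53e-05 and 0.447). The difference between these effects passed the edgeR test (adjusted p = 0.00651) but not by library totals alone (-0.088, adjusted p = 0.0831). At 24 h Mcm2 stayed uncalled in only 4 of the 6 fits that left out a 24 h library (0.027 to 0.091 over the 6). At 4 h the values were 472, 485 and 491 CPM with vehicle and 482, 498 and 489 CPM with FGF6, which overlapped. Mcm3 had log2 fold changes of 0.087, 0.26 and 0.24, the first of which turned to -0.014 by library totals alone, and Mcm5 of 0.16 and 0.24 at 8 and 24 h.

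Among the licensing factors 3, 5 and 5 of 6 were higher at 4, 8 and 24 h, and 2, 0 and 0 were lower. The shares higher were 50%, 83.3% and 83.3%, beside 28.6%, 32.4% and 35.9% of all genes. The 33.3% lower at 4 h was close to the 34.2% of all genes, which was 38.4% and 37.9% at 8 and 24 h. Orc2, a subunit of the origin recognition complex at chr1:58462771-58505109, had the largest change of the 40 at 4 and 8 h. It was at 59.0, 56.5 and 56.7 CPM with vehicle and 90.7, 92.2 and 96.5 CPM with FGF6 at 4 h. At 8 h it was at 53.6, 58.7 and 55.5 with vehicle and 99.97, 102 and 107 CPM with FGF6, and at 24 h at 46.6, 43.0 and 46.1 with vehicle and 83.9, 80.0 and 79.1 CPM with FGF6. All FGF6 libraries were above all vehicle libraries at each time, by 1.62-, 1.84- and 1.79-fold (log2 0.70 ± 0.043, 0.88 ± 0.043 and 0.84 ± 0.044, edgeR, adjusted p = 2.53e-13, 1.24e-15 and 4.38e-15). Of its 3857 exonic bases, 1150 are shared with Nif3l1 on the opposite strand, and how the counting treated strand is not given in the sources used here.

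Cdt1, the MCM loader, was higher early and not at 24 h. It was at 146, 141 and 139 CPM with vehicle and 192, 195 and 186 CPM with FGF6 at 4 h, and at 118, 124 and 118 with vehicle and 184, 185 and 178 CPM with FGF6 at 8 h. At 24 h the groups overlapped, at 120.5, 122 and 116 with vehicle and 114, 114 and 123 CPM with FGF6. The log2 fold change went from 0.43 ± 0.035 and 0.60 ± 0.036 to -0.028 ± 0.036 (edgeR, adjusted p = 7.33e-11, 6.97e-14 and 0.49), and the drop from 8 to 24 h was -0.63 ± 0.051 (adjusted p = 1.62e-10).

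Geminin, the inhibitor of Cdt1, was at 33.3, 33.2 and 34.1 CPM with vehicle and 51.2, 50.2 and 50.9 CPM with FGF6 at 24 h, a rise of 1.51-fold without overlap. At 4 h it was at 23.7, 24.2 and 21.6 CPM with vehicle and 20.7, 21.8 and 20.9 CPM with FGF6, and at 8 h at 34.8, 32.9 and 32.5 with vehicle and 29.9, 32.1 and 32.5 CPM with FGF6. The 4 h groups overlapped, and at 8 h the FGF6 libraries lay below the vehicle ones by a margin smaller than the rounding, without passing the test. The fitted log2 change was -0.13 ± 0.053, -0.088 ± 0.048 and 0.60 ± 0.047 (edgeR, adjusted p = 0.0315, 0.107 and 1.63e-11), and from 8 to 24 h the effect on geminin became more positive while that on Cdt1 became more negative. With DESeq2 the 4 h value of geminin did not pass (adjusted p = 0.126). The 4 h call of geminin held in 4 of 8 alternative fits and in 1 of the 6 that left out a 4 h library.

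Cdc6, the ATPase that works with the origin recognition complex, rose from 8 h on. At 4 h it was at 46.8, 43.8 and 43.7 CPM with vehicle and 41.4, 42.4 and 40.2 CPM with FGF6, at 8 h at 54.0, 58.5 and 54.6 with vehicle and 75.4, 79.2 and 78.8 CPM with FGF6, and at 24 h at 37.1, 39.6 and 38.5 with vehicle and 63.4, 58.8 and 59.1 CPM with FGF6. The FGF6 libraries were all below the vehicle ones at 4 h and all above them later, with log2 fold changes of -0.11 ± 0.047, 0.48 ± 0.044 and 0.65 ± 0.047 (edgeR, adjusted p = 0.0376, 4.53e-10 and 2.58e-12). With DESeq2 the 4 h value did not pass (adjusted p = 0.119). The 4 h call of Cdc6 held in 4 of 8 alternative fits and in 2 of the 6 that left out a 4 h library. Orc6 was higher by 0.23, 0.33 and 0.58 on the log2 scale, and Orc1 by 0.27 and 0.21 at 8 and 24 h.

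The helicase cofactors join the ring when it is activated. At 4, 8 and 24 h 1, 3 and 5 of 6 were higher and 2, 1 and 0 lower. The 16.7%, 50% and 83.3% higher stand beside 28.6%, 32.4% and 35.9% of all genes, and 33.3% lower at 4 h beside 34.2%. At 8 and 24 h 38.4% and 37.9% of all genes were lower. Gins1, a GINS subunit, was at 22.1, 22.7 and 21.3 CPM with vehicle and 31.7, 35.9 and 36.7 CPM with FGF6 at 24 h. At 8 h the values were 20.99, 22.3 and 23.5 with vehicle and 25.3, 27.4 and 27.3 CPM with FGF6, again without overlap, and at 4 h they overlapped, at 19.1, 19.3 and 21.8 with vehicle and 19.4, 18.8 and 21.7 CPM with FGF6. In log2 terms the change was -0.011 ± 0.071, 0.26 ± 0.067 and 0.65 ± 0.067 (edgeR, adjusted p = 0.906, 0.00142 and 2.3e-09).

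Gins3, another subunit of the same complex, fell at 4 and 8 h. It was at 36.4, 36.7 and 39.3 CPM with vehicle and 31.4, 30.9 and 32.0 CPM with FGF6 at 4 h, and at 41.7, 45.1 and 46.5 with vehicle and 37.0, 36.0 and 38.8 CPM with FGF6 at 8 h. At 24 h the groups overlapped, at 33.7, 32.1 and 34.9 with vehicle and 31.6, 32.5 and 30.9 CPM with FGF6. The log2 fold changes were -0.25 ± 0.05, -0.25 ± 0.049 and -0.083 ± 0.051 (edgeR, adjusted p = 9.76e-05, 5.03e-05 and 0.147).

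Cdc45, the third component of the active helicase, was lower with FGF6 at 4 h (64.7, 63.4 and 69.0 against 56.7, 62.5 and 59.5 CPM) and higher at 24 h (62.5, 62.1 and 64.8 against 87.8, 86.5 and 88.6 CPM). The 8 h libraries overlapped, at 85.9, 90.6 and 89.1 CPM with vehicle and 87.4, 90.7 and 91.0 CPM with FGF6. The fold on the log2 scale was -0.14 ± 0.041, 0.019 ± 0.04 and 0.47 ± 0.041 (edgeR, adjusted p = 0.00469, 0.685 and 9.98e-11). Mcm10, which helps to activate the helicase, was higher by 0.32 at 8 h and 0.64 at 24 h. Gins2 was higher at all 3 times, by 0.25, 0.19 and 0.11, but 2758 of its 4097 exonic bases are shared with Gse1 on the opposite strand.

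The clamp and its loader parted. Pcna, the sliding clamp at chr2:132249162-132253314, was higher at each time and 1 subunit of the loader, Rfc1, was lower at each time. Pcna was at 172, 191 and 197 CPM with vehicle and 214, 221 and 214 CPM with FGF6 at 4 h. The values were 185, 187 and 193 with vehicle and 216, 224 and 229 CPM with FGF6 at 8 h and 173, 177 and 176 with vehicle and 220.1, 219 and 213 CPM with FGF6 at 24 h, without overlap at any time. On the log2 scale it changed by 0.21 ± 0.039, 0.24 ± 0.039 and 0.31 ± 0.039 (edgeR, adjusted p = 3.68e-05, 4.43e-06 and 9.54e-08). A processed copy, Pcna-ps2, took 431 to 661 counts per library, and how reads shared with it were split is not given in the sources used here.

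Rfc1, the large subunit of the loader, fell by 0.31, 0.25 and 0.27 on the log2 scale. Rfc5, a small subunit, was at 80.5, 80.3 and 76.7 CPM with vehicle and 67.7, 69.6 and 67.9 CPM with FGF6 at 4 h, without overlap. Later the groups overlapped, at 86.3, 91.9 and 88.3 with vehicle and 83.6, 84.2 and 87.6 CPM with FGF6 at 8 h and at 71.6, 75.4 and 76.7 with vehicle and 78.6, 74.5 and 74.4 CPM with FGF6 at 24 h. The fitted log2 change was -0.21 ± 0.038, -0.062 ± 0.038 and 0.025 ± 0.038 (edgeR, adjusted p = 3.54e-05, 0.144 and 0.562). Rfc2 was lower at 4 h (-0.13), Rfc3 was higher at 24 h (0.15), and Rfc4 passed at none of the 3 times, though 3 of 8 alternative fits called it lower at 8 h (-0.11 in the fit given here).

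Polymerase alpha-primase, which makes the RNA-DNA primer of every new strand, had all of its members called lower at 4 h, as did flap removal and ligation. The 4 h call of Pola1 held in 4 of 8 alternative fits and in 1 of the 6 that left out a 4 h library. For Fen1 these were 8 of 8 and 3 of 6. Of the 4 polymerase alpha-primase genes 4, 1 and 1 were lower at 4, 8 and 24 h, and 0, 0 and 2 were higher. Of all genes 34.2%, 38.4% and 37.9% were lower and 28.6%, 32.4% and 35.9% higher. Prim2, the regulatory subunit of primase at chr1:33453810-33669795, was lower throughout. It was at 48.9, 47.2 and 50.5 CPM with vehicle and 41.5, 42.3 and 41.7 CPM with FGF6 at 4 h, at 60.0, 62.0 and 61.9 with vehicle and 46.9, 52.0 and 47.4 CPM with FGF6 at 8 h, and at 58.0, 61.0 and 59.9 with vehicle and 47.2, 51.3 and 45.1 CPM with FGF6 at 24 h. No FGF6 library reached a vehicle library of its time, and the log2 fold change was -0.22 ± 0.049, -0.33 ± 0.048 and -0.32 ± 0.048 (edgeR, adjusted p = 0.000289, 1.07e-06 and 1.9e-06).

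Prim1, the catalytic subunit of primase, was lower at 4 h only among the 3 tests. It was at 131, 132 and 140.4 CPM with vehicle and 110.2, 115 and 124 CPM with FGF6 at 4 h. The groups overlapped at 8 h (165, 172 and 178 with vehicle and 165, 177 and 179 CPM with FGF6) and at 24 h (127, 119 and 121 with vehicle and 128, 123 and 119 CPM with FGF6). In log2 terms the change was -0.21 ± 0.045, 0.014 ± 0.044 and 0.0053 ± 0.045 (edgeR, adjusted p = 0.000298, 0.788 and 0.921), and the 8 h effect was above the 4 h effect by 0.22 ± 0.063 (adjusted p = 0.00915).

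Pola1, the catalytic subunit of polymerase alpha, was at 99.5, 106 and 109 CPM with vehicle and 96.6, 97.9 and 99.0 CPM with FGF6 at 4 h, and at 120.0, 130.0 and 128 with vehicle and 153, 142 and 144 CPM with FGF6 at 24 h. At 8 h the groups overlapped, at 129.9, 138 and 144 with vehicle and 135, 138 and 140.5 CPM with FGF6. The fold on the log2 scale was -0.10 ± 0.042, 0.009 ± 0.041 and 0.21 ± 0.041 (edgeR, adjusted p = 0.0361, 0.853 and 4.87e-05), and with DESeq2 the 4 h value did not pass (adjusted p = 0.108). Pola2, its accessory subunit, was at 101, 106 and 109 CPM with vehicle and 93.5, 101 and 90.6 CPM with FGF6 at 4 h. Its values were 118, 126 and 121 with vehicle and 123, 133 and 125 CPM with FGF6 at 8 h and 109.6, 109 and 103 with vehicle and 116, 123 and 120.5 CPM with FGF6 at 24 h. The groups overlapped at 8 h and not at 4 or 24 h, although the nearest 4 h libraries round to the same value, with log2 fold changes of -0.15 ± 0.042, 0.06 ± 0.041 and 0.16 ± 0.042 (edgeR, adjusted p = 0.00272, 0.197 and 0.00108).

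Of the 5 genes for the main replicative polymerases, 2, 4 and 2 were higher and 1, 1 and 0 lower at 4, 8 and 24 h. Over all genes tested 34.2%, 38.4% and 37.9% were lower. The 40%, 80% and 40% higher stand beside 28.6%, 32.4% and 35.9% of all genes, so the first and last lay near the background. Pole2, an accessory subunit of the leading-strand polymerase epsilon at chr12:69201773-69228195, was higher throughout. It was at 34.6, 37.2 and 37.4 CPM with vehicle and 46.5, 43.5 and 46.7 CPM with FGF6 at 4 h, at 40.6, 42.0 and 40.2 with vehicle and 49.7, 53.5 and 50.2 CPM with FGF6 at 8 h, and at 29.1, 32.2 and 32.1 with vehicle and 44.5, 44.6 and 44.4 CPM with FGF6 at 24 h. The groups did not overlap, and the log2 fold change was 0.32 ± 0.048, 0.32 ± 0.047 and 0.51 ± 0.049 (edgeR, adjusted p = 2.09e-06, 1.2e-06 and 7.35e-10). Of the 2881 exonic bases of Pole2, 245 are shared with Gm49384 on the same strand. Pole, the catalytic subunit, was higher by 0.096 and 0.28 at 8 and 24 h, the first of which did not hold in every alternative.

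Polymerase delta, the lagging-strand enzyme, showed no subunit called at 24 h, although 3 of the 6 fits that left out a 24 h library called Pold3. Pold2, its accessory subunit, was at 110.2, 111 and 104 CPM with vehicle and 121, 122 and 123 CPM with FGF6 at 4 h, and at 124, 122 and 111 with vehicle and 139.9, 137 and 140.4 CPM with FGF6 at 8 h. Both times were free of overlap, but at 24 h the values were 135, 138 and 135 with vehicle and 125, 136 and 141 CPM with FGF6, and they overlapped. The log2 fold change was 0.17 ± 0.042, 0.23 ± 0.041 and -0.021 ± 0.041 (edgeR, adjusted p = 0.00109, 2.32e-05 and 0.659). Pold1, the catalytic subunit, was higher at 8 h (0.28), and Pold3, another accessory subunit, was lower at 4 and 8 h (-0.21 and -0.25).

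The RPA subunits, which coat single-stranded DNA, differed in direction at 24 h. Rpa2 (chr4:132768332-132778752) was at 73.6, 77.9 and 75.0 CPM with vehicle and 89.7, 92.0 and 88.6 CPM with FGF6, and Rpa1 (chr11:75298166-75348324) was at 269, 277 and 275 with vehicle and 239, 249 and 248 CPM with FGF6. Neither pair of groups overlapped, and the log2 fold change was 0.25 ± 0.04 for Rpa2 and -0.16 ± 0.03 for Rpa1 (edgeR, adjusted p = 2.79e-06 and 4.16e-05). At 8 h Rpa2 was at 90.9, 94.5 and 93.5 CPM with vehicle and 100.3, 107 and 108 CPM with FGF6, and Rpa1 at 256, 255 and 267 with vehicle and 247, 254 and 249.6 CPM with FGF6. At 4 h Rpa2 overlapped between groups (71.4, 76.6 and 78.2 with vehicle and 76.5, 73.8 and 77.9 CPM with FGF6), while Rpa1 did not (249, 249 and 253 with vehicle and 214, 223 and 216 CPM with FGF6). The earlier log2 fold changes were 0.012 ± 0.04 and 0.18 ± 0.039 for Rpa2 (adjusted p = 0.811 and 0.000268) and -0.20 ± 0.03 and -0.052 ± 0.03 for Rpa1 (adjusted p = 2.41e-06 and 0.128).

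Lig1, the ligase that seals Okazaki fragments at chr7:13277283-13311433, was lower at every time. It was at 158, 161 and 161 CPM with vehicle and 125, 126 and 125 CPM with FGF6 at 4 h, at 208, 215 and 207 with vehicle and 162, 172 and 167 CPM with FGF6 at 8 h, and at 223, 234 and 229 with vehicle and 194, 201 and 204 CPM with FGF6 at 24 h. All FGF6 libraries were below all vehicle libraries of their time, while both arms rose with time. The log2 fold change was -0.35 ± 0.032, -0.33 ± 0.032 and -0.20 ± 0.032 (edgeR, adjusted p = 7.64e-10, 8.27e-10 and 4.12e-06). It was closer to 0 at 24 h than at 8 h by 0.14 ± 0.045 (edgeR, adjusted p = 0.0148). That call was lost without FGF6 library 1 or vehicle library 2 at 8 h (0.115 and 0.118) and with no low-count filter (0.121).

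Fen1, the nuclease that trims the flap before ligation, had few counts. It was at 7.33, 6.74 and 9.05 CPM with vehicle and 5.95, 6.6 and 5.57 CPM with FGF6 at 4 h, at 5.87, 6.93 and 6.57 with vehicle and 7.06, 9.68 and 9.0 CPM with FGF6 at 8 h, and at 7.25, 8.38 and 7.57 with vehicle and 10.4, 11.5 and 8.59 CPM with FGF6 at 24 h. The groups did not overlap, lower at 4 h and higher later, with log2 fold changes of -0.34 ± 0.13, 0.41 ± 0.13 and 0.39 ± 0.12 (edgeR, adjusted p = 0.0269, 0.00678 and 0.00679). Each call rested on single libraries: it was lost without FGF6 library 1 or 3 or vehicle library 3 at 4 h, without FGF6 library 2 at 8 h, and without FGF6 library 2 at 24 h (log2 -0.213 to -0.304, 0.306 and 0.296). Of its 2422 exonic bases, 2039 are shared with Tmem258 and Gm10143 on the opposite strand, so its counts are uncertain.

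**Figure D3:**
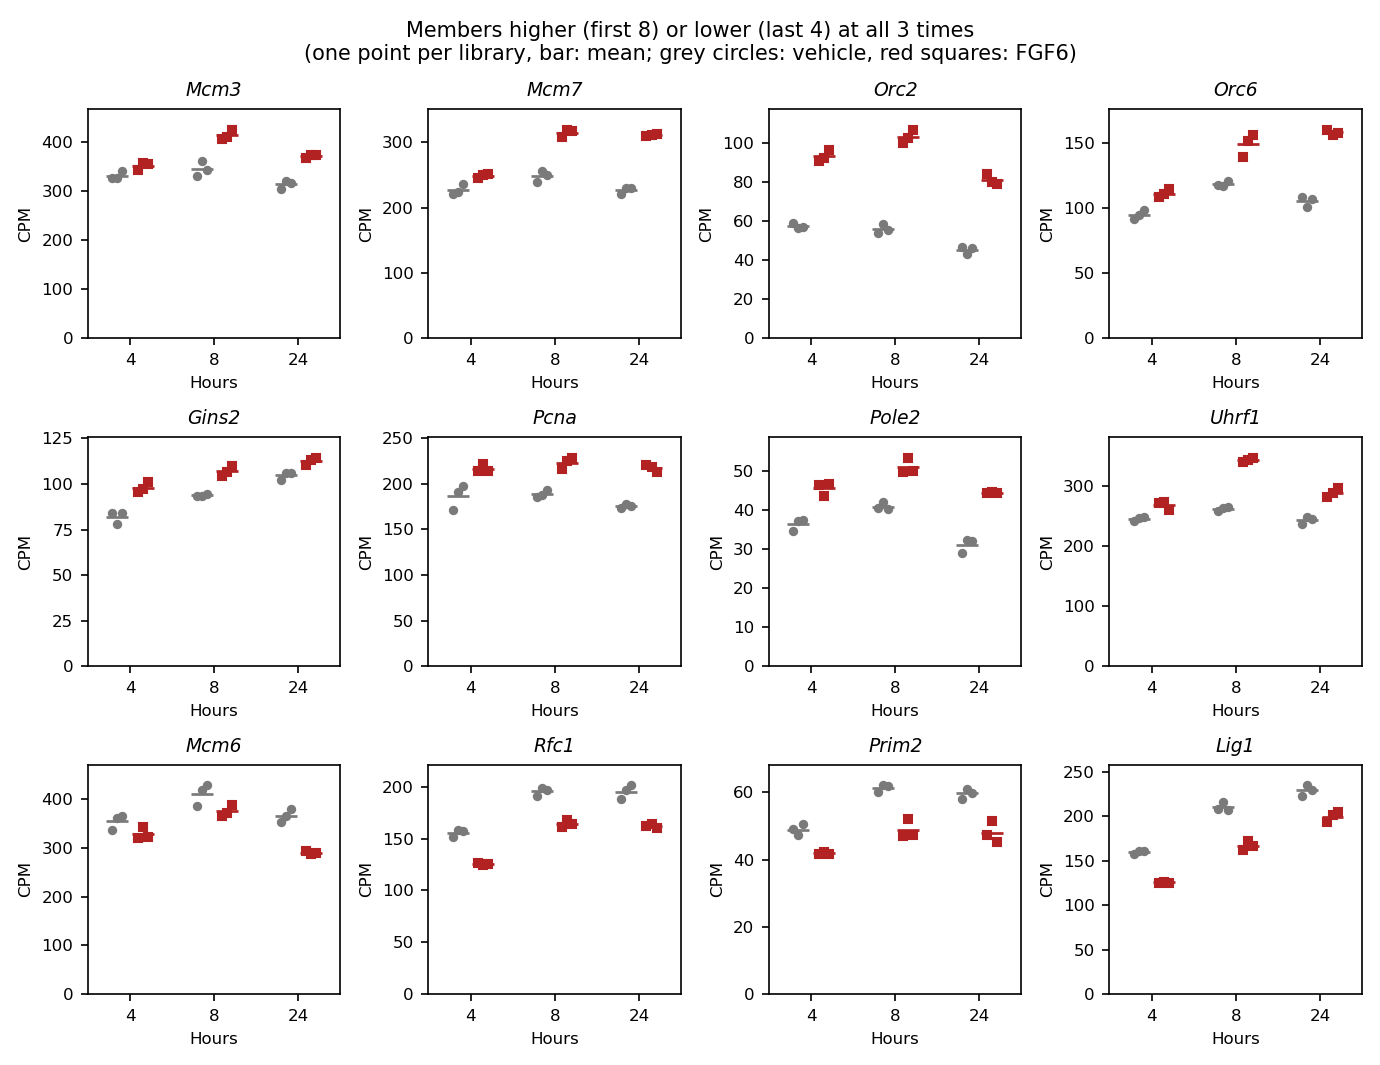
CPM of the 12 members called in the same direction at 4, 8 and 24 h (x axis), with a point per library, a bar for the mean of 3, grey circles for vehicle and red squares for FGF6. The 8 higher members include Orc2, at 43.03 to 59.02 CPM with vehicle and 79.13 to 106.7 CPM with FGF6, and the 4 lower members are Mcm6, Rfc1, Prim2 and Lig1, of which Mcm6 overlaps between groups at 4 and 8 h.

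The transcription factors E2f1 and E2f2 and the methylation cofactor Uhrf1 were all higher at 8 and at 24 h. Of all genes tested 32.4% and 35.9% were higher at these times. E2f2 (chr4:136172394-136196057) had the largest change of the 40 at 24 h and the lowest level per kilobase. It was at 6.55, 7.14 and 6.51 CPM with vehicle and 5.66, 5.07 and 4.96 CPM with FGF6 at 4 h, at 8.87, 10.4 and 9.17 with vehicle and 13.6, 13.5 and 13.8 CPM with FGF6 at 8 h, and at 4.83, 5.1 and 6.26 with vehicle and 11.1, 12.9 and 13.2 CPM with FGF6 at 24 h. The FGF6 libraries were all below the vehicle ones at 4 h and all above them at 8 and 24 h, by 2.32-fold at 24 h. The log2 fold change was -0.37 ± 0.11, 0.52 ± 0.089 and 1.21 ± 0.099 (edgeR, adjusted p = 0.00418, 1.07e-05 and 3.46e-11), and all 3 calls held in every alternative fit.

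E2f1 was not called at 4 h (-0.0097 ± 0.032) and was higher by 0.58 ± 0.031 at 8 h and 0.38 ± 0.031 at 24 h (edgeR, adjusted p = 0.812, 1.17e-14 and 5.17e-11). Uhrf1, which guides maintenance methylation to new DNA, was at 242, 247 and 249 CPM with vehicle and 272, 274 and 260.1 CPM with FGF6 at 4 h. At 8 h it was at 258, 264 and 265 with vehicle and 340.5, 343 and 348 CPM with FGF6, and at 24 h at 238, 249 and 245 with vehicle and 282, 289 and 296 CPM with FGF6. The groups did not overlap at any time, and its log2 fold change was 0.13 ± 0.031, 0.39 ± 0.031 and 0.25 ± 0.031 (edgeR, adjusted p = 0.000811, 2.07e-11 and 8.55e-08). By library totals alone the 4 h value was 0.026 (adjusted p = 0.457).

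Across the 3 times 8 members were higher at each (Mcm3, Mcm7, Orc2, Orc6, Gins2, Pcna, Pole2 and Uhrf1; 20.4% of all genes had this pattern, beside 20% of the members) and 4 were lower at each (Mcm6, Rfc1, Prim2 and Lig1; 23% of all genes, beside 10%). Cdc6, Gmnn, Cdc45, Pola1, Pola2, Fen1 and E2f2, 7 in all (17.5%, beside 8.19% of all genes), were called in opposite directions at 2 times, and each was lower at 4 h and higher at 24 h. Mcm4 and Rfc4 (5%, beside 12.1%) were called at none, although 6 of 8 alternative fits called Mcm4 and 3 of 8 called Rfc4 at 8 h. Of the 4 h calls of the 7 members with opposite calls, only that of E2f2 held in every alternative fit and with each library left out. The other 6, between -0.34 and -0.10 on the log2 scale, were each lost in at least 1 fit that left out a library.

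**Figure D4:**
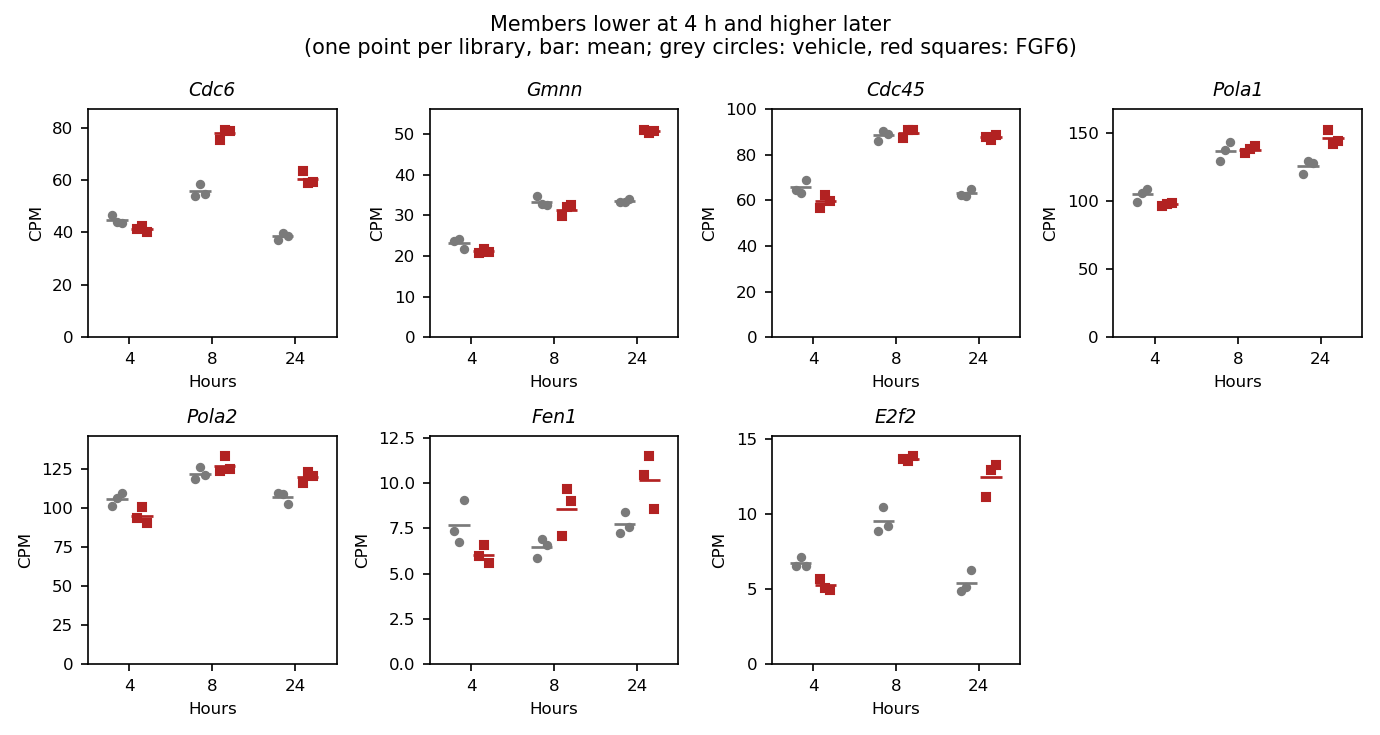
CPM of the 7 members lower at 4 h and higher at 24 h with FGF6, by hours of treatment, with a point per library, a bar for the mean of 3, grey circles for vehicle and red squares for FGF6. The 4 h gaps were small (Cdc6 at 43.7 to 46.79 against 40.18 to 42.42 CPM) and the 24 h gaps wider (37.1 to 39.63 against 58.8 to 63.39 CPM).

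Differences between times were tested directly, as the difference between the FGF6 effects. From 4 to 8 h the effect became more positive in 22 members (15.5% of all genes did) and more negative in 0 (15.1%). The latter count was also 0 with limma-voom, with DESeq2 and at an unadjusted p under 0.05 in edgeR. With a library left out the 22 ran from 15 to 23. Mcm10 gained 0.37 ± 0.055 and E2f1 gained 0.59 ± 0.045 (edgeR, adjusted p = 1.28e-05 and 3.1e-10). From 8 to 24 h 13 members became more positive (22.6% of all genes) and 8 more negative (22.5%). By library totals alone these were 22 and 5, and with a library left out 9 to 16 and 7 to 8. Pold1 lost most after Cdt1, at -0.35 ± 0.056 (edgeR, adjusted p = 1.15e-05). Between 4 and 24 h 28 were more positive (28.3% of all genes) and 4 more negative (25.2%), the latter being Mcm6, Cdt1, Gins2 and Pold2. Without FGF6 library 1 at 24 h those 4 became 2.

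The vehicle cells were not still. From 4 to 8 h 29 of the 40 members rose in them (72.5%, beside 21.2% of all genes) and 2, Mcm2 and Cdt1, fell (5%, beside 21.7%). From 8 to 24 h 5 rose (12.5%, beside 25.5%) and 28 fell (70%, beside 23.7%). Without vehicle library 3 at 4 h or library 1 at 8 h, 1 member fell in the first step, and without the vehicle library that stood apart the counts of the second step were 4 and 27. Cdc6 rose by 0.32 ± 0.046 and then fell by 0.53, and Cdc45 rose by 0.43 ± 0.04 and then fell by 0.49 on the log2 scale.

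In FGF6-treated cells 37 of the 40 rose from 4 to 8 h (92.5%, beside 24.1% of all genes) and 0 fell (beside 24%), a count that was also 0 with limma-voom, with DESeq2 and at an unadjusted p under 0.05 in edgeR. From 8 to 24 h 5 rose (12.5%, beside 31.1%) and 19 fell (47.5%, beside 31.2%). Here Cdc6 rose by 0.91 ± 0.046 and then fell by 0.36, whereas Cdc45 rose by 0.59 ± 0.041 and changed by -0.034 ± 0.04 from 8 to 24 h, which did not pass the test (edgeR, adjusted p = 0.486). Gmnn, Gins1, Gins4, Pold3 and Lig1 were the 5 that rose further. Each arm shares its 8 h libraries between its 2 steps, and an FGF6 effect at 8 or 24 h is read against vehicle levels that were themselves moving.

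**Figure D5:**
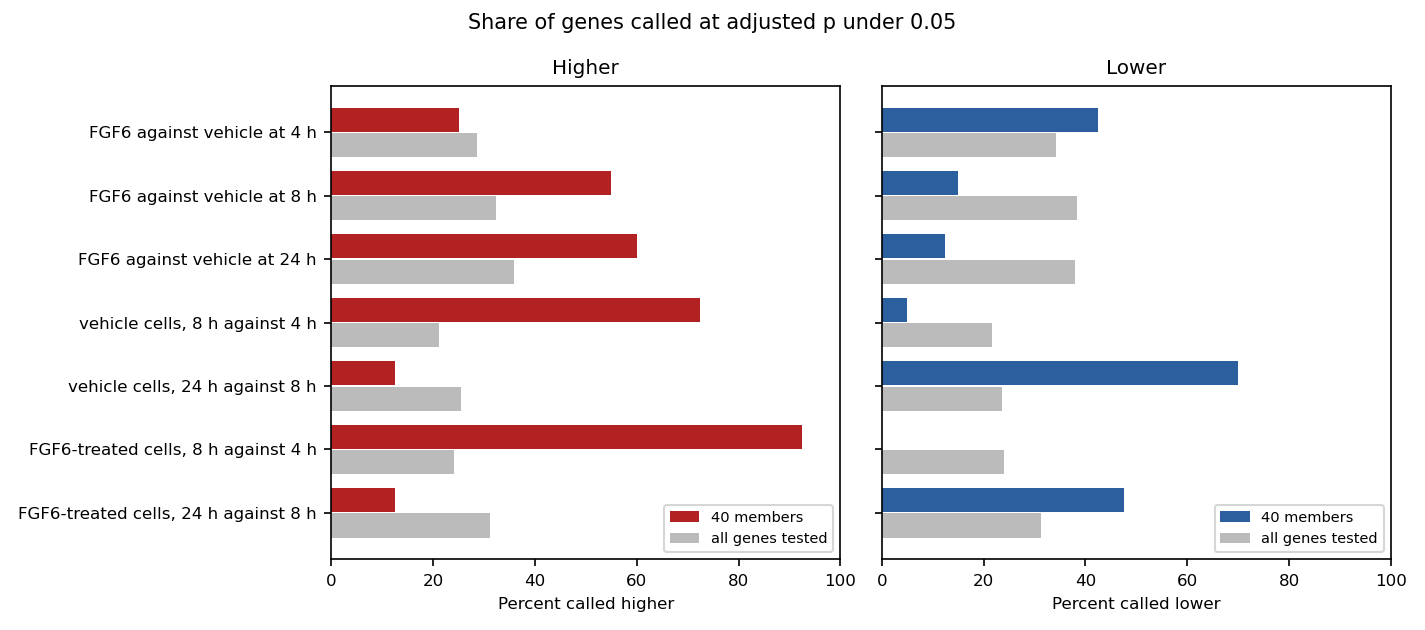
Percent of the 40 members (colour) and of all 15071 genes tested (grey) called higher (left) or lower (right) in each comparison named on the y axis, at adjusted p under 0.05. The members' share stood highest above that of all genes for the rise from 4 to 8 h, at 92.5% in FGF6-treated and 72.5% in vehicle cells.

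Other genes of the same pathways were counted for comparison. Of 33 further replication factors, 32 were tested (Pold4 was listed at 0 counts in every library), and 11, 16 and 23 were higher and 13, 8 and 5 lower at 4, 8 and 24 h. At 4 h their 34.4% higher and 40.6% lower lay near the 28.6% and 34.2% of all genes, and at 24 h 71.9% and 15.6% stood beside 35.9% and 37.9%. The 2 with the largest 24 h change were Rnaseh2a, the catalytic subunit of RNase H2, at 33.2, 34.3 and 32.4 CPM with vehicle and 60.8, 62.3 and 60.7 CPM with FGF6, and Dna2, a nuclease and helicase, at 29.5, 27.7 and 28.5 with vehicle and 51.8, 51.1 and 52.0 CPM with FGF6. Their log2 fold changes were 0.88 ± 0.048 and 0.85 ± 0.047 (edgeR, adjusted p = 1.31e-14 and 1.42e-14).

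Most genes of nucleotide supply were higher. Of 17, 12, 13 and 15 were higher and 5, 3 and 0 lower (at 24 h also 0 with limma-voom, with DESeq2 and at an unadjusted p under 0.05 in edgeR), with median log2 fold changes of 0.208, 0.481 and 0.557. The 70.6%, 76.5% and 88.2% higher stand beside 28.6%, 32.4% and 35.9% of all genes. The 29.4% lower at 4 h was near the 34.2% of all genes, which was 38.4% and 37.9% at 8 and 24 h. Cad, which starts pyrimidine synthesis, was at 221, 214 and 205 CPM with vehicle and 411, 410.3 and 412 CPM with FGF6 at 24 h, and Gart, of purine synthesis, at 97.8, 100.2 and 96.2 with vehicle and 179, 179.5 and 179 CPM with FGF6. Neither overlapped between groups, with log2 fold changes of 0.95 ± 0.038 and 0.87 ± 0.034 (adjusted p = 2.2e-17 and 9.88e-18).

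Genes of mitosis were lower at first. Of 25, 0, 0 and 20 were higher and 25, 23 and 3 lower at 4, 8 and 24 h, with medians of -0.462, -0.446 and 0.329. The 100%, 92% and 12% lower stand beside 34.2%, 38.4% and 37.9% of all genes, and 80% higher at 24 h beside 35.9%. Over all genes 28.6% and 32.4% were higher at 4 and 8 h. Bub1, a spindle checkpoint kinase, was at 51.4, 53.4 and 57.1 CPM with vehicle and 35.2, 35.1 and 35.2 CPM with FGF6 at 4 h and at 81.3, 78.8 and 83.3 with vehicle and 140.0, 143 and 138 CPM with FGF6 at 24 h. At 8 h, when 22 replication members were higher, 0 mitosis genes were, nor was any at 4 or 8 h with limma-voom, with DESeq2 or at an unadjusted p under 0.05 in edgeR. Espl1, the separase that releases sister chromatids, was higher by 0.67 ± 0.046 at 24 h (adjusted p = 1.25e-12).

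Of 11 other E2F and pocket protein genes, 5, 7 and 8 were higher and 4, 4 and 2 lower. The 45.5%, 63.6% and 72.7% higher stand beside 28.6%, 32.4% and 35.9% of all genes. The 36.4% lower at 4 and at 8 h lay near the 34.2% and 38.4% of all genes, which was 37.9% at 24 h. E2f8, an atypical E2F that represses transcription, was at 42.2, 40.2 and 40.6 CPM with vehicle and 85.7, 79.7 and 83.6 CPM with FGF6 already at 4 h, and at 47.3, 44.0 and 48.0 with vehicle and 142, 147 and 149 CPM with FGF6 at 24 h. Its log2 fold change at 24 h was 1.66 ± 0.039, beside 1.21 ± 0.099 for E2f2 (edgeR, adjusted p = 3.14e-22 and 3.46e-11). E2f4, which usually pairs with pocket proteins in resting cells, was higher by 0.71 ± 0.033, 0.92 ± 0.034 and 1.07 ± 0.034 (adjusted p = 1.08e-15, 4.4e-18 and 1.34e-19).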

How the data were processed

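RNA of 18 libraries was sequenced, 3 per group, and the deposited table holds whole-number counts of reads per gene, 1 column per library, which the authors made by aligning reads to GRCm38.p4 with STAR and assigning them to genes with featureCounts of Subread. Versions, the strand setting and the treatment of multi-mapped reads are not given in the sources used here. Genes were named through their Ensembl identifiers in GENCODE M21 (GRCm38), in which 98.3% of the 48023 identifiers were found.

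Counts were filtered with filterByExpr over the 6 groups (15071 genes), scaled with TMM factors and fitted in edgeR (version 4.0.16, R 4.3.3) as 1 quasi-likelihood model of the 6 groups, with contrasts for FGF6 against vehicle at each time, for the differences between these effects, and for time within each arm. Adjusted p-values are Benjamini-Hochberg values across every gene that entered the fit. For CPM, a gene's count was divided by its library's total over kept genes after TMM scaling, and SE is the absolute log2 fold change over the root of the F statistic. The scripts were tested on simulated data. The members and the other lists were chosen with earlier results of these data known. CPM per library was given for the members with the largest and the smallest absolute change at 24 h in each role and for those called in opposite directions, and for Mcm6, which was added after its values were seen. The 2 genes of each other list with the largest absolute change at 24 h were named.

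Alternatives were limma-voom (limma 3.58.1), DESeq2 (1.42.0), library totals alone, upper-quartile factors, other filters on low counts, fits of the compared libraries only, a replicate block, the study's threshold of 0.25, and leaving out each library, with the scaling recomputed each time. Totals of 24327816 to 33471980 counts per library bound the precision. No exact permutation test was run on single genes, since 3 values against 3 allow no p under 0.1.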

Additional observations from a re-analysis of the deposited data

Results flagged for a closer look

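By the edgeR test of the difference itself, the FGF6 effect differed between 4 and 24 h in 32 of the 40 members. It became more positive in 28 (70%, beside 28.3% of all genes tested) and more negative in 4 (10%, beside 25.2%). Given here are the differences of the 7 members called in opposite directions at 2 times and the 8 other differences quoted above. All are on the log2 scale, the later effect minus the earlier one.

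The 7 were chosen by their calls, which all but fixes the sign of these differences, so the values are a description with no test. E2f2 had 0.888 from 4 to 8 h, 0.690 from 8 to 24 h and 1.578 from 4 to 24 h. Cdc6 had 0.596, 0.170 and 0.766 over the same steps. Cdc45 had 0.159, 0.455 and 0.614. Fen1 had 0.749 from 4 to 8 h and 0.733 from 4 to 24 h, with most of its exonic bases shared with genes on the opposite strand. Gmnn had 0.686 from 8 to 24 h and 0.730 from 4 to 24 h. Pola1 had 0.206 from 8 to 24 h and 0.318 from 4 to 24 h, and Pola2 had 0.213 from 4 to 8 h and 0.316 from 4 to 24 h. The 0.159 of Cdc45 and the 0.170 of Cdc6 lost the call under several alternatives.

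Of the others, the effect became more positive from 4 to 8 h for E2f1 (0.592), Mcm10 (0.365) and Prim1 (0.220). From 8 to 24 h it became more negative for Cdt1 (-0.633), Pold1 (-0.353), Mcm6 (-0.202) and Mcm2 (-0.145), and less negative for Lig1 (0.137). The adjusted p-values from edgeR stand beside these results above.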

How the results depend on the processing

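The 8 and 24 h directions of the members' median held in every alternative, and the 4 h median did not. At 4 h it was -0.138 by library totals alone, -0.093 with upper-quartile factors, -0.009 with at least 10 counts in every library, 0.000 with only the libraries compared, and -0.070 to 0.011 with a library left out, beside a main value of -0.037. Library totals alone moved the median over all genes by -0.102 at 4 h. The cause was not tested. At 8 h it was 0.201 with DESeq2, 0.099 by library totals alone, 0.118 with upper-quartile factors, 0.197 with only the libraries compared and 0.149 to 0.200 with a library left out. At 24 h it was 0.205 with DESeq2 and 0.192 to 0.248 with a library left out.

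Library totals alone gave 6 members higher at 4 h, 11 lower at 8 h, 22 more positive and 5 more negative from 8 to 24 h, 2 more negative from 4 to 24 h, 1 lower in vehicle cells from 4 to 8 h and 1 higher in them from 8 to 24 h. Upper-quartile factors gave 11 lower at 8 h, and no low-count filter gave 3 higher in vehicle cells from 8 to 24 h. At the threshold of 0.25, 10 were lower at 8 h, 21 more positive from 8 to 24 h, 1 lower in FGF6-treated cells from 4 to 8 h and 9 higher in them from 8 to 24 h. With a library left out, 10 to 15 were lower at 4 h, 2 to 5 more negative from 4 to 24 h and 1 to 2 lower in vehicle cells from 4 to 8 h.

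Single genes that changed sign were near 0 in the main fit. Those listed here are members called at that time or with CPM per library given above. Other uncalled members changed sign as well. Among them at 4 h were Mcm4 (-0.075 to 0.063 over the alternative fits), Mcm5 (-0.071 to 0.067) and Pold1 (-0.055 to 0.083). Mcm2 at 4 h was called lower by library totals alone (edgeR, adjusted p = 0.0193). By library totals and upper-quartile factors Mcm2 at 4 h was -0.080 and -0.035, Rpa2 at 4 h -0.089 and -0.044, Cdc45 at 8 h -0.045 and -0.026, Pola1 at 8 h -0.055 and -0.036, Prim1 at 8 h -0.050 and -0.031, and Prim1 at 24 h -0.002 and -0.009. By library totals Mcm3 at 4 h, the only one called before, was -0.014 and Pola2 at 8 h -0.004. Gins1 at 4 h was 0.013 with DESeq2, 0.016 with at least 10 counts and 0.026 with only the libraries compared, and Prim1 at 24 h was -0.003 with no filter and -0.009 with at least 10 counts. With a library left out the values ran from -0.046 to 0.058 for Gins1 and down to -0.025 for Rpa2 at 4 h, from -0.002 to 0.052 for Cdc45, from -0.029 to 0.045 for Pola1 and from -0.014 to 0.051 for Prim1 at 8 h, and from -0.024 to 0.035 for Cdt1 and up to 0.071 for Pold2 at 24 h.

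The replicate numbers are shared across groups. Over 9 same-numbered pairs of FGF6 and vehicle libraries of the same time, the correlation of deviations ran from -0.0275 to 0.0486. Of the FGF6 libraries, 4 correlated best with their own number. Pairs across times were not compared, and these values cannot show whether same-numbered libraries shared a culture or batch. With the number as a block the counts were 10 higher and 17 lower at 4 h, 23 and 7 at 8 h and 24 and 5 at 24 h, and no count moved by over 1.5 times. Fen1 and E2f2, with the fewest counts, are the members whose precision depth limits most.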
